A study of Mus musculus with 6 samples.

Results

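The BCL2 family apoptosis regulators were examined in differentiated MC3T3-E1 osteoblasts after corticosterone. The family was taken as 10 genes, listed by their symbols with earlier results of these data known. They were *Bcl2*, *Bcl2l1* and *Mcl1*, *Bax* and *Bak1*, and *Bcl2l11*, *Bbc3*, *Pmaip1*, *Bid* and *Bmf*. Of these, 9 were matched by Ensembl identifier among the 24016 genes of the table, and *Pmaip1* was not analysed here. MC3T3-E1 subclone 4 is a preosteoblast line from mouse calvaria, labelled as wild type, so every library comes from 1 clone of cells in culture. Differentiation lasted 6 days in medium with β-glycerophosphate (10 mM) and ascorbic acid (50 μg/ml). Cells then received vehicle or corticosterone at 100 nM for 24 h. Corticosterone is the chief glucocorticoid in mice. The treatment text in the labels lists 10 nM calcitriol for every sample, vehicle included. The labels give passages 4 to 10 in the culture description and 6 to 12 as a batch entry, the same for all samples. RNA was sequenced from 3 vehicle and 3 corticosterone replicates.

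The BCL2 family controls whether the outer membrane of mitochondria is opened in apoptosis. The effectors BAX and BAK form the pores, the guardians BCL-2, BCL-xL and MCL-1 hold them in check, and the BH3-only proteins, such as BIM, PUMA, NOXA, BID and BMF, either occupy the guardians or act on the effectors. Glucocorticoids are known to kill lymphoid cells through this pathway, with *Bcl2l11* among the genes they induce there, and loss of osteoblasts and osteocytes by apoptosis is a recognised feature of glucocorticoid excess in bone.

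The deposited values were read counts scaled by 1 size factor for each library, termed normalized counts here. Between 16020401 and 25638645 reads were counted on genes per library, with the corticosterone libraries all shallower than the vehicle libraries. The glucocorticoid response genes *Tsc22d3*, *Fkbp5*, *Sgk1* and *Per1* were higher in all 3 corticosterone libraries than in all 3 vehicle libraries. Of 8 osteoblast markers, all had values well above the floor of 3 reads. Of the markers of other cell types that were analysed, the adipocyte gene *Plin1* and the T cell gene *Cd3e* had at most 2 reads in a library, the muscle gene *Ckm* at most 4 and the endothelial gene *Pecam1* at most 9. The macrophage gene *Cd68* had 22 to 43 reads in every library, and its groups overlapped. The chondrocyte genes *Col2a1* and *Sox9* were present in all libraries and were called lower after corticosterone, while *Matn1* had at most 2 reads. The summed level of 3 chondrocyte genes moved from between 3478 and 3899 to between 2876 and 2929 normalized counts. After corticosterone, 7 osteoblast markers fell and *Spp1* rose (1.18-fold). *Bglap* fell to 0.27 of the vehicle level, *Sp7* to 0.39, *Ibsp* to 0.43 and *Runx2* to 0.45. *Alpl* fell to 0.75, *Col1a2* to 0.78 and *Col1a1* to 0.90. The summed level of the list moved from between 1357300 and 1403400 to between 1182200 and 1237700 normalized counts. Most of that sum came from *Col1a1* and *Col1a2* (vehicle means 709240 and 560840), so it hides the larger falls. Whether these changes had a part in the results below was not tested, and in such bulk samples fewer cells of a type and less RNA per cell cannot be told apart.

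Corticosterone raised 2 of the 9 family genes, lowered 1, and left 6 without a call. The guardian gene *Bcl2l1* and the BH3-only gene *Bcl2l11*, whose products bind each other, rose by similar amounts. The BH3-only gene *Bbc3* fell. The call was an adjusted p under 0.05 with limma, a moderated linear model fitted to log2(normalized count + 0.1) and adjusted by Benjamini-Hochberg across the 24016 genes. By the same rule 16.7% of all genes were called, 8.49% as higher and 8.2% as lower. Calls were more frequent among well-expressed genes. Of the 13880 genes with a mean normalized count of at least 10, the 9 family genes included, 1970 were called higher and 1869 lower. The median log2 fold change was -0.04 over the 9 family genes and -0.01 over all genes tested. Past the threshold of the study's methods, which also asks for an absolute log2 fold change over 1, there were 0 of 9 family genes with limma, against 2.78% of all genes (1.38% higher and 1.4% lower). With limma, 261 of the 13880 well-expressed genes were higher past it and 236 lower. The study applied this threshold to DESeq2 results, so these shares are not its own counts. The family count was also 0 with edgeR and with DESeq2 on the recovered reads. An unadjusted limma p under 0.05 was found for 5 of the 9 family genes, against 26.3% of all genes. The groups did not overlap in 5 of the 9 genes, 2 higher and 3 lower, against 29.6% of all genes (14.7% higher and 14.9% lower). Of the 13880 well-expressed genes, 3018 were higher and 3062 lower without overlap, and 5610 had an unadjusted limma p under 0.05. A two-sided exact permutation test gave p = 0.1 for each of these 5 genes, the smallest value that 3 against 3 allow. Any gene without overlap gets that value, so it adds nothing to the count. Nothing in the labels says whether the replicates were separate cultures, although the series describes them as biological replicates. The limma p-values and intervals rest on the spread between these samples and on a variance trend drawn from all genes. They are therefore not a measure of the spread of 1 gene alone.

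**Figure D1:**
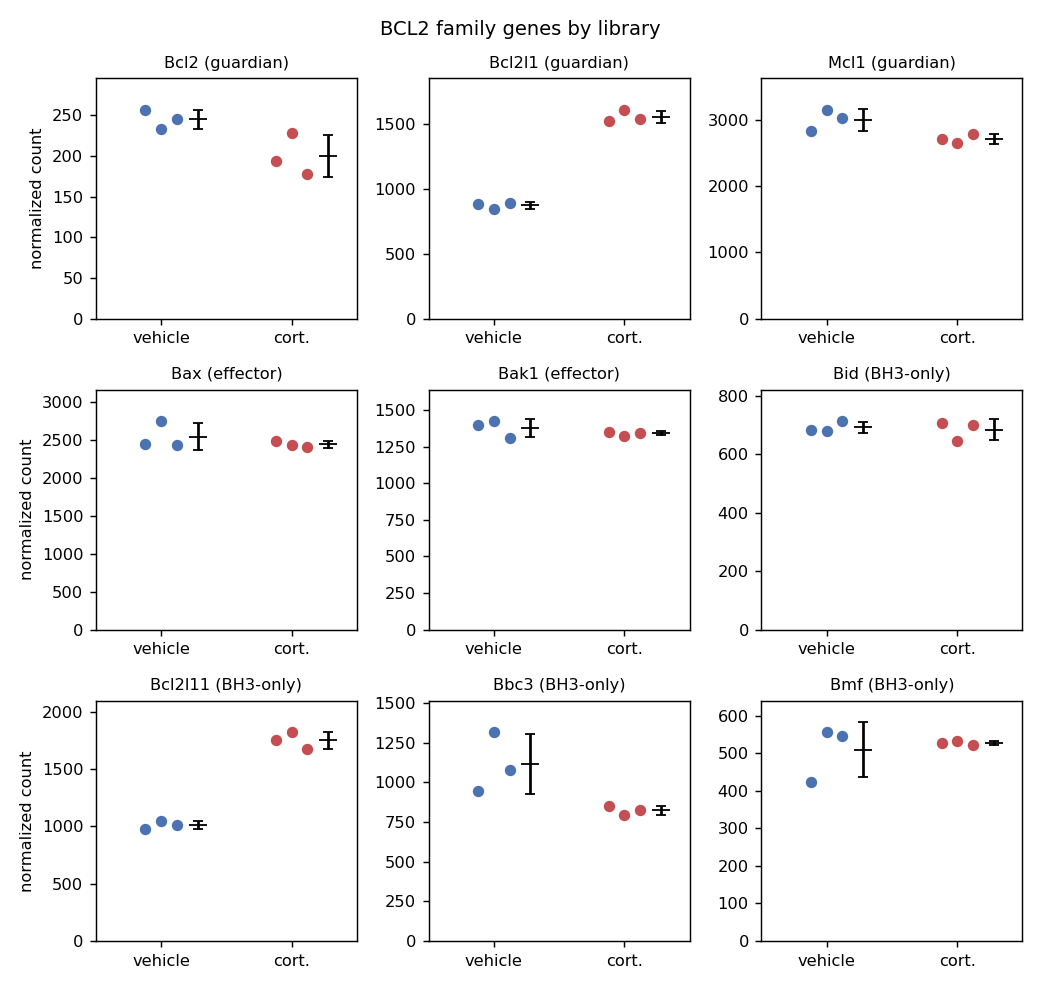
Normalized counts of the 9 BCL2 family genes in each library, with vehicle libraries in blue and corticosterone (cort.) libraries in red on y axes that start at 0; the black bar beside each group is its mean ± SD (n = 3). The red points lie above the blue ones for *Bcl2l1* and *Bcl2l11*, and below them for *Bbc3*, *Bcl2* and *Mcl1*.

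Among the guardians, *Bcl2l1* carried the largest change. It encodes BCL-xL and is located at 152780668 to 152831728 of chromosome 2 (GRCm38, minus strand). Vehicle cultures had 889, 847 and 891 normalized counts and corticosterone cultures 1525, 1614 and 1540.3. Every corticosterone library stood far above every vehicle library, and the spread within each group was small. The mean rose from 875 ± 24.8 to 1559.5 ± 47.5 (SD, n = 3 each), 1.78-fold (95% interval 1.65 to 1.92), or 0.83 on the log2 scale (limma adjusted p = 6.2e-09, SE 0.05). At least 861 reads stood behind each value, and the call held under all 20 alternatives, with log2 fold changes between 0.79 and 0.85. The size of the p-value depended on the variance model, and without a variance trend the limma adjusted p was 0.0051. The values sum the reads of all transcripts of the gene, so that the long and short splice forms, whose products act in opposite ways, were not told apart.

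*Mcl1* (chromosome 3, 95658788 to 95663176, plus strand) encodes the short-lived guardian MCL-1. It had normalized counts of 2823, 3148 and 3019 with vehicle and 2701, 2640 and 2789 with corticosterone. The groups did not overlap, but the highest corticosterone library lay only just under the lowest vehicle library. The change was -0.14 on the log2 scale (95% interval -0.25 to -0.04, SE 0.05), with a limma adjusted p of 0.052. This misses the threshold narrowly. The adjusted p was under 0.05 in 10 of 14 alternatives with all libraries, among them edgeR (0.030) and DESeq2 (0.032). Without a variance trend the limma adjusted p was 0.31. With a library left out, the limma adjusted p was under 0.05 in 1 of 6 fits and reached 0.20.

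*Bcl2* (chromosome 1, 106538178 to 106714274, minus strand), the gene that gave the family its name, had the fewest reads of the family, 139 to 317 per library. Its normalized counts were 257, 233 and 245 with vehicle and 194, 229 and 178 with corticosterone. The second corticosterone library lay just under the lowest vehicle library, and the other corticosterone libraries were lower. The change of -0.30 on the log2 scale (95% interval -0.53 to -0.07, SE 0.11) did not pass the test (limma adjusted p = 0.069). Leaving out each library in turn gave values from -0.40 (limma adjusted p = 0.026, without the second corticosterone library) to -0.22 (0.26, without the third), and the other 4 removals did not pass the test. Of the exonic bases of *Bcl2*, 6.09% overlap exons of an antisense transcript on the other strand, and whether the authors counted by strand is not given in the sources used here.

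Of the BH3-only genes, *Bcl2l11* rose. It encodes BIM, which binds all the guardians, and lies on chromosome 2, 128126038 to 128162547, on the plus strand. The normalized counts were 975 (vehicle 1), 1048 (vehicle 2) and 1011 (vehicle 3), against 1756, 1825 and 1676 in the corticosterone libraries. The lowest corticosterone library was far above the highest vehicle library. The mean rose from 1011 ± 36.3 to 1752 ± 74.4 (SD, n = 3 each), 1.73-fold (95% interval 1.60 to 1.87), or 0.79 on the log2 scale (limma adjusted p = 1.3e-08, SE 0.05). The call held under all 20 alternatives, with log2 fold changes from 0.75 to 0.82, and the limma adjusted p was 0.0070 without a variance trend. As for *Bcl2l1*, the splice forms of BIM were summed.

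*Bbc3* (chromosome 7, 16308393 to 16318205, plus strand) encodes PUMA, a BH3-only protein best known as a target of p53. Its normalized counts were 946, 1317 and 1080 with vehicle and 849, 796 and 824 with corticosterone. All corticosterone values were lower than all vehicle values, and they lay close together, whereas the vehicle values were widely spread with the second library highest. The mean dropped from 1114 ± 188 to 823 ± 26.4 (SD, n = 3 for both groups), or by 0.42 on the log2 scale (95% interval of the change -0.61 to -0.24, SE 0.09, limma adjusted p = 0.0025). The fall was smaller without the second vehicle library, at -0.30. The call was lost without the third vehicle library (limma adjusted p = 0.072), without the third corticosterone library (0.064) and without a variance trend in the model (0.19), while the direction stayed the same under all 20 alternatives.

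*Bcl2l11* and *Bbc3* are both known targets of FOXO3. Their promoters, each 250 bases before to 50 bases after a RefSeq transcript start of GRCm38.p6, were therefore searched on both strands for the FoxO site GTAAACA. The 9 family genes had 16 such promoters, of which 2 held the letters, against 3.65% of 32851 mouse promoters. The matches are shown with 10 bases to each side, the FoxO letters in capitals, 5′ to 3′ on the strand of the gene. The *Bcl2l11* match lies 227 bases before a transcript start, at chr2:128125801-128125827, and the *Bbc3* match 167 bases before an alternative start, at chr7:16310084-16310110, where the site is read on the other strand.
Bcl2l11: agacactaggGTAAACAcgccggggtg
Bbc3: ctggcgggttTGTTTACaaacaatggg
One of these genes rose and the other fell. The full glucocorticoid response element, AGAACA and its reverse complement TGTTCT with any 3 bases between them, was in 0 of the 16 promoters and in 3 of all promoters, and its half-site AGAACA was in 0 of the 16 and in 19.0% of all. These windows are short, and a match or its absence describes the letters only.

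*Bid* (chromosome 6, 120891930 to 120916853, minus strand) encodes the BH3-only protein that links death receptors to mitochondria. Its normalized counts ran from 678 to 714 with vehicle and from 644 to 707 with corticosterone. The groups overlapped, and the log2 fold change was -0.02 (95% interval -0.15 to 0.11, limma adjusted p = 0.92). Exons of *Bcl2l13* on the other strand cover 17.7% of the exonic bases of *Bid*. *Bmf* (chromosome 2, 118528757 to 118549687, minus strand) encodes a BH3-only protein tied to the cytoskeleton. It had 424, 556 and 547 normalized counts with vehicle and 527, 532 and 523 with corticosterone, with the first vehicle library lowest of all. Its log2 fold change was 0.06 (95% interval -0.13 to 0.25, limma adjusted p = 0.73).

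The effector genes *Bax* (chromosome 7, 45461697 to 45466898, minus strand) and *Bak1* (chromosome 17, 27019810 to 27029009, minus strand) were not called. *Bax* had normalized counts of 2449, 2748 and 2425 with vehicle and 2486, 2427 and 2404 with corticosterone, a log2 fold change of -0.06 (95% interval -0.17 to 0.05, limma adjusted p = 0.57). *Bak1* had 1399, 1425 and 1309 with vehicle and 1351, 1324 and 1342 with corticosterone, a log2 fold change of -0.04 (95% interval -0.15 to 0.07, limma adjusted p = 0.69). The groups overlapped in both genes, and the intervals exclude changes as large as those of *Bcl2l1* and *Bcl2l11*. Exonic bases shared with other genes were 12.2% for *Bax*, with *Gm45808* on the same strand. For *Bak1* they were 25.5%, with *Ggnbp1* on the other strand.

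**Figure D2:**
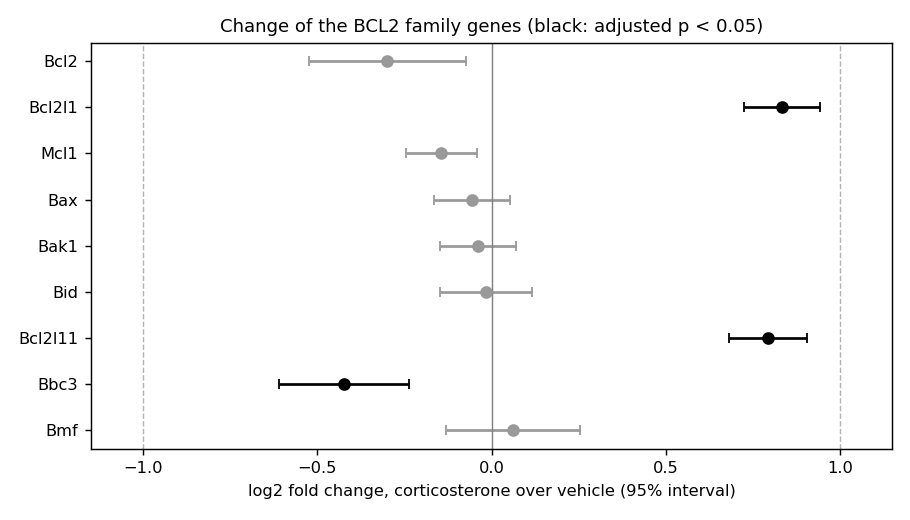
Log2 fold change of each BCL2 family gene after corticosterone on the x axis, with 95% intervals from limma; black marks an adjusted p under 0.05, gray the rest, and dashed lines a log2 fold change of 1 in each direction. *Bcl2l1* (0.83) and *Bcl2l11* (0.79) stand apart on the right, *Bbc3* (-0.42) lies furthest left, and no interval reaches the dashed lines.

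Levels of different genes were compared as normalized counts per kilobase, using the mean length of the protein-coding transcripts of each gene. With vehicle, *Bax* was highest at 3811 ± 270.0 and *Bcl2* lowest at 48.9 ± 2.39 (SD, n = 3). Between them came *Mcl1* (1401 ± 76.5), *Bbc3* (1236 ± 208), *Bak1* (838 ± 37.1), *Bcl2l1* (569.5 ± 16.2), *Bid* (508 ± 14.1), *Bcl2l11* (360.3 ± 12.9) and *Bmf* (132 ± 19.1), each as normalized counts per kilobase. The ranges of the 3 vehicle libraries overlapped between the neighbours *Mcl1* and *Bbc3*, and between no other neighbours in this order. With corticosterone, *Bcl2l1* moved from place 5 to place 3 at 1015 ± 30.9 normalized counts per kilobase, and *Bcl2l11* from place 7 to place 6 at 624 ± 26.5. The neighbours in the corticosterone order did not overlap. The vehicle order was the same when the longest transcript was used as the length, whereas *Bbc3* and *Bak1* then changed places in the corticosterone order.

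**Figure D3:**
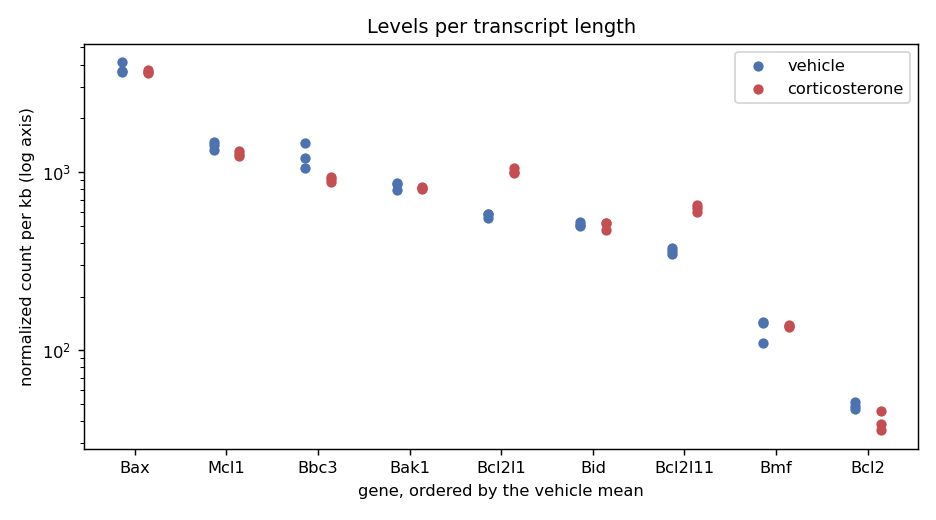
Normalized counts per kilobase of the BCL2 family genes on a log y axis, ordered by the vehicle mean, with 3 vehicle libraries in blue and 3 corticosterone libraries in red per gene. *Bax* lies highest and *Bcl2* lowest in both groups, and the red points of *Bcl2l1* (1015 on average) lie above those of *Bak1* (814) and *Bbc3* (913).

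Ratios between family genes were formed from the values per kilobase in each library and are given as descriptions without a test. All but that of *Bax* to *Bcl2* were chosen after the values were seen. The ratio of *Bax* to *Bcl2*, often used as an index of readiness for apoptosis, was 71.7, 88.7 and 74.4 with vehicle and 96.5, 79.9 and 102 with corticosterone. The groups overlapped, since the second vehicle library lay above the second corticosterone library. The ratio of *Bcl2l11* to *Bcl2l1* was 0.633 ± 0.0398 with vehicle and 0.615 ± 0.0178 with corticosterone (SD, n = 3 each), with overlapping groups. The ratio of *Bbc3* to *Bcl2l1* was 1.82, 2.65 and 2.07 with vehicle and 0.95, 0.842 and 0.912 with corticosterone, so that *Bcl2l1* passed *Bbc3*. Of the summed level of the 3 guardians, *Bcl2l1* made up 28.2% ± 1.53 with vehicle and 43.7% ± 1.20 with corticosterone (SD, n = 3 each), while *Mcl1* made up 69.4% ± 1.72 and 54.6% ± 1.42. *Mcl1* thus remained the most abundant guardian transcript per length in every library.

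**Figure D4:**
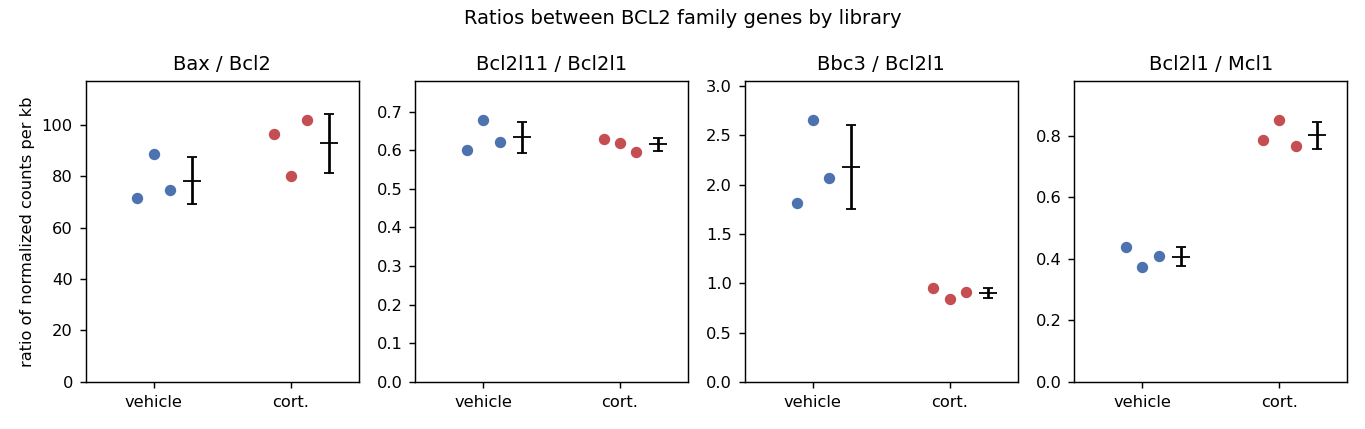
Ratios of normalized counts per kilobase in each library, with vehicle in blue, corticosterone (cort.) in red, and the mean ± SD (n = 3) as a black bar; y axes start at 0. The groups overlap for *Bax* to *Bcl2* and for *Bcl2l11* to *Bcl2l1*, and are separate for *Bbc3* to *Bcl2l1* and for *Bcl2l1* to *Mcl1*.

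Around the family, 58 further genes of apoptosis were listed by their textbook roles, of which 52 were analysed. Of these 52, 6 were called higher and 8 lower, against 8.49% and 8.2% of all genes. A mean of at least 10 was reached by 48 of the 52. Of the 13880 genes that reached it, 1970 were called higher and 1869 lower, and the calls among the 52 lay near these shares. The median log2 fold change over the 52 was -0.0029, against -0.01 over all genes. Among 10 further BCL2 homologues and relatives, *Bcl2l2*, which encodes the guardian BCL-w, was called. It fell from between 544 and 580 to between 436 and 508 normalized counts, a log2 fold change of -0.25 (limma adjusted p = 0.022). This call was lost when any of 5 libraries was removed. *Bok*, *Bad*, *Bnip3*, *Bnip3l*, *Bcl2l12* and *Bcl2l13* were not called, and *Bcl2l10*, *Bcl2l14* and *Bcl2l15* had at most 8 reads in a library.

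In the list of 6 genes of the apoptosome and the caspases, 3 were called lower and 0 higher. By comparison, 8.2% of all genes, and 1869 of the 13880 genes with a mean of at least 10, were called lower. *Casp2* changed by -0.32 (limma adjusted p = 0.0031), *Apaf1*, the scaffold of the apoptosome, by -0.24 (0.0031) and *Casp9*, the caspase it activates, by -0.23 (0.027) on the log2 scale. The groups did not overlap in these 3 genes. *Casp2* and *Apaf1* stayed under an adjusted p of 0.05 whichever library was removed, and *Casp9* did not, with an adjusted p of up to 0.17. None of these 3 calls held without a variance trend in the model (limma adjusted p = 0.065 for *Casp2*, 0.11 for *Apaf1* and 0.26 for *Casp9*). *Casp6*, *Casp8* and *Cycs* were not called.

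Among 6 genes of the inhibitor of apoptosis proteins and their antagonists, *Htra2*, a mitochondrial protease that antagonises these inhibitors, rose by 0.37 on the log2 scale (limma adjusted p = 3.2e-04). *Birc3* changed by -0.33 (limma adjusted p = 0.038). The *Birc3* call was lost when any of 5 libraries was removed, with DESeq2 (adjusted p = 0.11) and, narrowly, with a robust prior variance in limma (0.0503). *Xiap*, *Birc2*, *Birc5* and *Diablo* were not called. In the death receptor pathway, *Cflar*, which encodes the caspase-8 inhibitor c-FLIP, fell from between 1379 and 1422 to between 1144 and 1184 normalized counts, a log2 fold change of -0.27 (limma adjusted p = 7.3e-04), and it was the only one called of 7 genes. Of 8 genes of the mitochondrial pore and nuclear execution, *Aifm1* was called, at 0.19 on the log2 scale (limma adjusted p = 0.033). The *Aifm1* call was lost when any of 5 libraries was removed, with DESeq2 (adjusted p = 0.058) and with the same total in every library (limma, 0.096).

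Of the known regulators of the family, *Foxo3* was called higher. Its normalized counts were 7992, 8130 and 8227 with vehicle and 10445, 10752 and 10732 with corticosterone, a log2 fold change of 0.39 (limma adjusted p = 7.9e-07, SE 0.04). Whether this rise had a part in the changes of *Bcl2l11* or *Bbc3* was not tested. *Foxo1* rose by 0.28 (limma adjusted p = 0.024). This call was lost when any of 5 libraries was removed, with DESeq2 (adjusted p = 0.076) and with the same total in every library (limma, 0.054). *Usp9x*, a deubiquitinase that stabilises MCL-1, fell by 0.16 on the log2 scale (limma adjusted p = 0.011), and *Huwe1*, a ligase that marks MCL-1 for degradation, was higher by 0.14 (0.018), a call that did not hold with quantile normalization (0.95), with the same total in every library (0.10), or without the first vehicle (0.058), the first corticosterone (0.073) or the second corticosterone library (0.077). *Ddit3*, *E2f1* and *Fbxw7* were not called. In the p53 pathway *Cdkn1a*, the cell cycle inhibitor p21, fell by 0.37 on the log2 scale (limma adjusted p = 6.3e-04). The *Cdkn1a* call was lost with a robust prior variance in limma (adjusted p = 0.084). *Mdm4*, an inhibitor of p53, rose by 0.22 (limma adjusted p = 0.0020), while *Trp53*, *Mdm2*, *Zmat3*, *Ccng1* and *Phlda3* were not called. Of the 14 calls among these further genes, 1 held without a variance trend in the model, that of *Foxo3*.

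**Figure D5:**
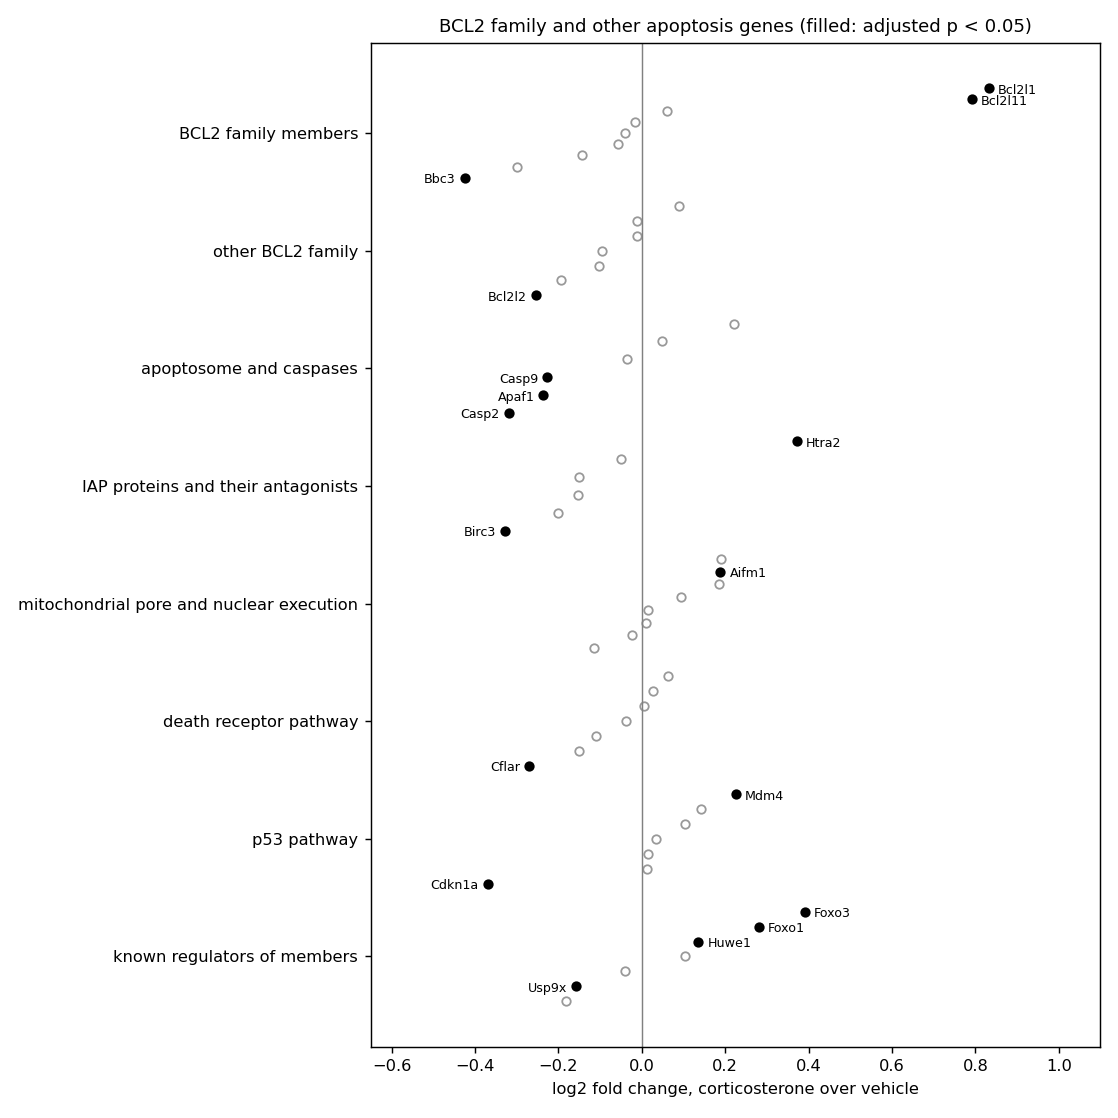
Log2 fold change after corticosterone (x axis) of the 9 BCL2 family genes and of 48 further apoptosis genes with more than 10 reads in a library, in rows by role; filled points have a limma adjusted p under 0.05 and carry the gene's name, open points do not. *Bcl2l1* and *Bcl2l11* lie to the right of every other gene drawn, and the filled points of the apoptosome and caspases all lie left of 0.

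The genes whose pattern over the 6 libraries was most like that of *Bcl2l1* were sought among 11479 genes with a mean normalized count of at least 50, by the root mean square difference of their centred log2 values. They were *Mylk* (0.025), *Stat5a* (0.036) and *H6pd* (0.042), with log2 fold changes of 0.83, 0.84 and 0.84. For *Bbc3* they were *Ago4* (0.046), *Apod* (0.049) and *Ccdc12* (0.055), with log2 fold changes of -0.46, -0.40 and -0.38. Similar fold changes follow from this way of choosing genes and are not a separate result.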

How the data were processed

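RNA of 3 vehicle and 3 corticosterone samples was sequenced commercially on an Illumina platform from NEB Next Ultra libraries. The processing notes name mm10. Aligner, counter, annotation and strandedness are not given in the sources used here. The authors deposited 1 signal per gene and library under the name FPKM. In each library 100% of the values were whole multiples of 1 step (tolerance 0.01 reads), so they are read counts divided by a size factor, and whole reads were recovered from them. A gene with 3 reads, the floor, has a normalized count of 2.32 to 3.84, for counting error only.

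The main test was limma 3.58.1 in R 4.3.3 (variance trend, two-sided) on log2(value + 0.1), after a filter on the mean value (0.1 or more) that removed no gene. Fold changes are on that scale. Alternatives were pseudocounts, filters, scalings, variance priors, the replicate number as a block, edgeR 4.0.16 and DESeq2 1.42.0 on recovered reads, and leaving out each library. The functions were run on simulated counts with larger changes than those of the family genes and the same dispersion for every gene. That run therefore says nothing about calls of small changes. Symbols and lengths came from GENCODE M21 (GRCm38), which matched 23983 of 24016 identifiers, and promoters from RefSeq (GRCm38.p6).

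Family members, gene lists and tests were chosen with earlier results of these data known. The genes named are the family, the listed genes, and the 3 nearest in pattern to the most significant gene of the family in each direction. Some genes of the wider apoptosis pathway are not reported here, and the counts leave them out.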

Additional observations from a re-analysis of the deposited data

How the results depend on the processing

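The calls of *Bcl2l1* and *Bcl2l11* held under all 14 alternatives and with each of the 6 libraries left out. Of the 9 family genes 3 were called, and between 2 and 4 with each library left out. With every library scaled to the same total, 5 were called, since *Bcl2* and *Mcl1* then passed (limma adjusted p = 0.039 and 0.00996). Past the study threshold the count was 0 throughout. Over all genes 4010 were called, 1633 without a variance trend and between 2567 and 3484 with a library left out, lowest without the third vehicle library. With scaling to the same total, 1703 genes were higher and 2521 lower, against 2040 and 1970. Of the 52 further apoptosis genes 14 were called, 11 with DESeq2, 1 without a variance trend, and between 9 and 13 with a library left out. The fewest, 9, came without the third vehicle or the first corticosterone library. The log2 ratio of *Bax* to *Bcl2* differed by 0.24 between groups, and by 0.17 to 0.35 with a library left out. The sign reversed with a library left out for *Bax* (range -0.089 to 0.0011), *Bid* (-0.041 to 0.026) and *Bmf* (-0.065 to 0.13), none of which was called. Where a call changed, the cause was not tested.

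Deviations from the group means were not shared by same-numbered libraries (correlations over 13880 genes of -0.04, 0.0014 and 0.02), so the numbers were not taken to pair the cultures. With the replicate block 3 family genes, 15 further apoptosis genes and 3905 genes in all were called, and in edgeR the block gave 4 family genes and 18 further genes.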

Other observations

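The high value of *Bbc3* in the second vehicle library was shared by other genes of the p53 pathway. In the second vehicle library *Bbc3* was 30.0% above the mean of the other vehicle libraries, *Cdkn1a* 24.8%, *Phlda3* 20.6%, *Ccng1* 14.1%, *Bax* 12.8%, *Zmat3* 10.8%, *Mdm2* 8.82% and *Mdm4* 5.66%. The exception was *Trp53*, which differed by -5.49% and was lowest in that library. Of the 9 genes of this pathway that were analysed, *Bax* included, 8 were highest in the second vehicle library. This compares with 36.2% of 13880 genes with a mean of at least 10, and the size of the excess was not compared over all genes. The 8 include *Bbc3*, whose spread was the starting point. Read counts of the first and second vehicle libraries also differed most among the pairs within a group (chi-square per degree of freedom 12.2, against 3.38 to 5.85). The cultures' history is not given in the labels, and the pattern was noticed after the values were seen. Without the second vehicle library the log2 fold change was -0.30 for *Bbc3* (limma adjusted p = 0.013) and -0.26 for *Cdkn1a* (limma adjusted p = 4.5e-04).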
